A study of Homo sapiens with 8 samples.

Results

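The aryl hydrocarbon receptor, its partner proteins and its best known target genes were examined in 2 cervical cancer cell lines after knockdown of the insulin-like growth factor 2 receptor, IGF2R. The members were 8 named genes: the receptor AHR, its partners ARNT and ARNT2, its repressor AHRR, and the targets CYP1A1, CYP1B1, TIPARP and ALDH3A1. They were selected on the change after knockdown in each line and on the control level in each line, so these values are given below as a description, with no test. A probe set, a group of short probes on the array that read the transcripts of a gene, was assigned to a member where the platform annotation mapped it to that gene alone. The members had 17 of the 54613 probe sets of the array, and 10 of these were among the 16517 well measured probe sets, whose signal reached 500 on 1 array or more. These 10 probe sets covered 6 of the 8 members, of 8961 genes measured in all. ARNT2 and CYP1A1 had no well measured probe set.

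AHR is a transcription factor of the bHLH-PAS family that waits in the cytosol, bound to chaperones, until it binds a ligand such as a dioxin, a polycyclic hydrocarbon or a tryptophan metabolite. It then enters the nucleus, pairs with ARNT and binds short DNA elements beside its target genes, among them those of cytochrome P450 enzymes that oxidize foreign compounds. AHRR and TIPARP are themselves targets and act back on the receptor as brakes. The pathway is active in many epithelial cells, where it links exposure to chemicals with metabolism and differentiation.

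The arrays carried total RNA of BOKU and SKG-I cells, collected 72 h after transfection. The siRNA was either a control (siCtrl) or directed at IGF2R (siIGF2R). Both lines are established human cervical cancer lines, grown in serum-containing medium, and both siRNAs were delivered by the same lipofection. No AHR ligand is named in the labels for any of the 4 groups. IGF2R carries lysosomal enzymes tagged with mannose 6-phosphate, and the comparison asks which transcripts differ when it is depleted. By a figure legend of the study, each line and siRNA gave 1 RNA sample, which was hybridized to 2 arrays. The design text of the series speaks of 2 sets of each condition, and the legend was followed here. The 8 arrays are thus taken to stand for 4 RNA samples. On this reading the spread between duplicate arrays is technical only, and no value within a line can be tested between the siRNAs.

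The signal of IGF2R itself was 7288 and 6710 in BOKU with siCtrl and 641 and 645 with siIGF2R, and 4120 and 3838 in SKG-I with siCtrl and 257 and 295 with siIGF2R. It was 10.9-fold lower in BOKU and 14.5-fold lower in SKG-I. The trimmed mean signal was the same on all arrays, near 500.1, and the difference between duplicates in log2 signal had an SD of 0.269 to 0.349. The keratins KRT8, KRT18 and KRT19 were above 500 in both lines, and of 7 epithelial markers on the array 3 reached 500 in BOKU and 5 in SKG-I, where EPCAM and CDH1 were added. KRT5 and KRT14, which mark basal squamous cells, stayed at 45.9 or less in both lines. Of 7 markers of other cell types, COL1A1 reached 500 in both lines and COL3A1 in SKG-I alone, while PTPRC, CD14, COL1A2 and MYH11 stayed at 65.5 or less and PECAM1 at 480.3 or less. None of the 5 measured epithelial markers passed the limma test over both lines. In SKG-I, KRT19 was 7024 and 7222 with siCtrl and 1968 and 1939 with siIGF2R, and CDH1 was 143 and 173 with siCtrl and 619 and 652 with siIGF2R, and their part in the results was not tested. In RNA of whole cultures, fewer cells that use a gene and less RNA of it per cell cannot be told apart.

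Among the 10 well measured probe sets of the members, 6 were at least 2-fold lower with siIGF2R in both lines. They were the 4 probe sets of CYP1B1 and 2 of ARNT, and over all well measured probe sets 2.28% were lower in the same way. None of the 10 was 2-fold higher in both lines, against 3.15% of all. In 7 of the 10, both siIGF2R arrays were below both siCtrl arrays in each line, which was so for 23.6% of all well measured probe sets. The median log2 change of the 10 was −1.16 in BOKU and −2.17 in SKG-I, beside 0.03 and −0.00 over all well measured probe sets. The members were selected on these same changes, so nothing is read from these shares. The dimmest of the CYP1B1 probe sets and the dimmer of the ARNT ones reached 500 on a single SKG-I siCtrl array only, where they were high. The brighter of the ARNT ones reached 500 on siCtrl arrays only. The filter thus favored a fall of these probe sets. The count of 6 was 5 with a floor of 100 and 3 with 64 added to every signal before the log2 scale. It was 0 among probe sets that reached 500 on every array, a filter that removed all those of CYP1B1 and ARNT and so fixed this value.

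**Figure D1:**
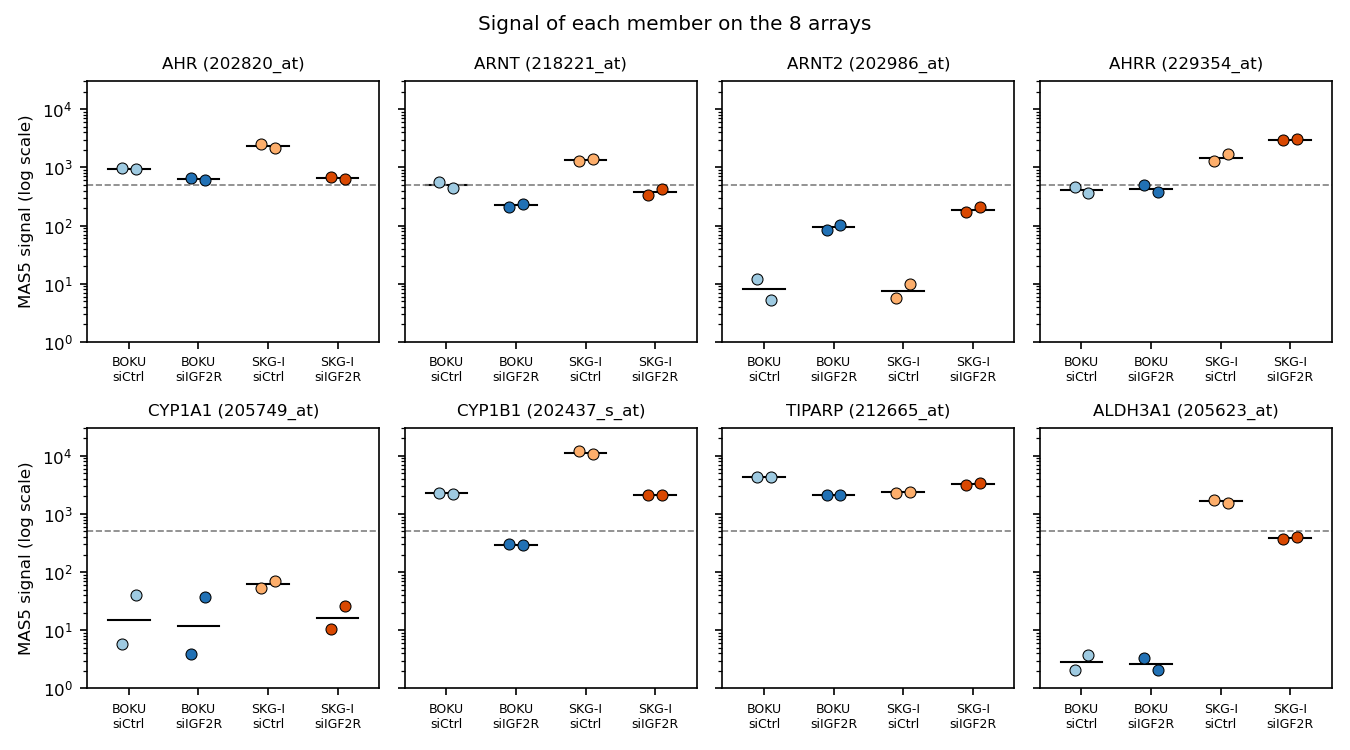
Each panel plots the MAS5 signal (log axis) of 1 member on the 8 arrays, as 2 points per line and siRNA, with a bar at their geometric mean and a dashed line at a signal of 500. The siIGF2R points of CYP1B1 and ARNT lie below the siCtrl points in both lines, those of AHRR lie above them in SKG-I, and all points of ARNT2 and CYP1A1 lie under the dashed line.

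AHR, the ligand-binding receptor, was lower with siIGF2R in both lines, and its difference between the lines was much smaller afterwards. Its signal in BOKU was 974 and 932 with siCtrl and 646 and 607 with siIGF2R. In SKG-I it was 2490.4 and 2158 with siCtrl and 677 and 643 with siIGF2R. The groups did not overlap within either line, and the highest signals were those of SKG-I with siCtrl. AHR was 1.52-fold lower in BOKU, a log2 change of −0.60, and 3.51-fold lower in SKG-I, a log2 change of −1.81. With siCtrl the signal in SKG-I was 2.43-fold that in BOKU, and with siIGF2R it was 1.05-fold, where the arrays of the lines overlapped. From the lowest change upward, the AHR probe set stood at rank 203 of 16517 in SKG-I and at rank 2002 in BOKU.

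ARNT, the partner that AHR needs to bind DNA and that HIF proteins also use, was lower with siIGF2R in both lines on both of its well measured probe sets. On the brighter of the pair its signal in BOKU was 566 and 451 with siCtrl and 207 and 237 with siIGF2R. In SKG-I it was 1278 and 1396 with siCtrl and 335 and 432 with siIGF2R. The siIGF2R arrays were below the siCtrl arrays in each line, by 2.28-fold in BOKU and 3.51-fold in SKG-I. The 4 groups were all apart from each other on this probe set, in the order SKG-I with siCtrl, BOKU with siCtrl, SKG-I with siIGF2R and BOKU with siIGF2R. The signal in SKG-I was 2.65-fold that in BOKU with siCtrl and 1.72-fold with siIGF2R.

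On the dimmer well measured probe set the signal of ARNT in BOKU was 264 and 225 with siCtrl and 106 and 115 with siIGF2R. In SKG-I it was 493 and 503 with siCtrl and 103 and 105 with siIGF2R. Again no siIGF2R array reached a siCtrl array of its line, and the difference was 2.20-fold in BOKU and 4.80-fold in SKG-I. Its lowest group was SKG-I with siIGF2R, whereas on the brighter probe set it was BOKU with siIGF2R, so the probe sets differ in the order of the lines after knockdown. Probe sets of 1 gene read the same RNA and are not replicates of each other.

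The dimmer probe set lay just inside the signal minimum, with a highest signal of 503, and the next one of ARNT lay just outside it, with a highest signal of 379. The log2 change of that next probe set was −0.78 in BOKU and −0.98 in SKG-I. The other 4 probe sets of ARNT stayed at 318 or less on every array. Of these, a pair with highest signals of 318 and 165 had log2 changes of −0.37 and −0.01 in BOKU, and of −1.06 and −0.58 in SKG-I. The remaining pair did not pass a signal of 55.2 on any array.

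ARNT2, a relative of ARNT that is best known from the nervous system, stayed under the signal minimum on all arrays. Its probe set read 12.1 and 5.33 in BOKU with siCtrl and 85.0 and 104 with siIGF2R. In SKG-I it read 5.56 and 10.0 with siCtrl and 170.3 and 208 with siIGF2R. The siIGF2R arrays were above the siCtrl arrays in each line and the siCtrl arrays of the lines overlapped. No fold is given, since the siCtrl signals were far under the median signal of the arrays.

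AHRR, which competes with AHR for ARNT and represses its targets, stood apart from the receptor and ARNT. Its signal in BOKU was 453 and 360.3 with siCtrl and 489 and 379 with siIGF2R, and these arrays overlapped. In SKG-I it was 1296 and 1676 with siCtrl and 2938 and 3082 with siIGF2R. Both siIGF2R arrays of SKG-I were above both siCtrl arrays, by 2.04-fold, a log2 change of 1.03. The log2 change in BOKU was 0.09. AHRR in SKG-I was 3.65-fold the level in BOKU with siCtrl and 6.99-fold with siIGF2R, and from the highest change downward it stood at rank 1350 of 16517 in SKG-I.

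**Figure D2:**
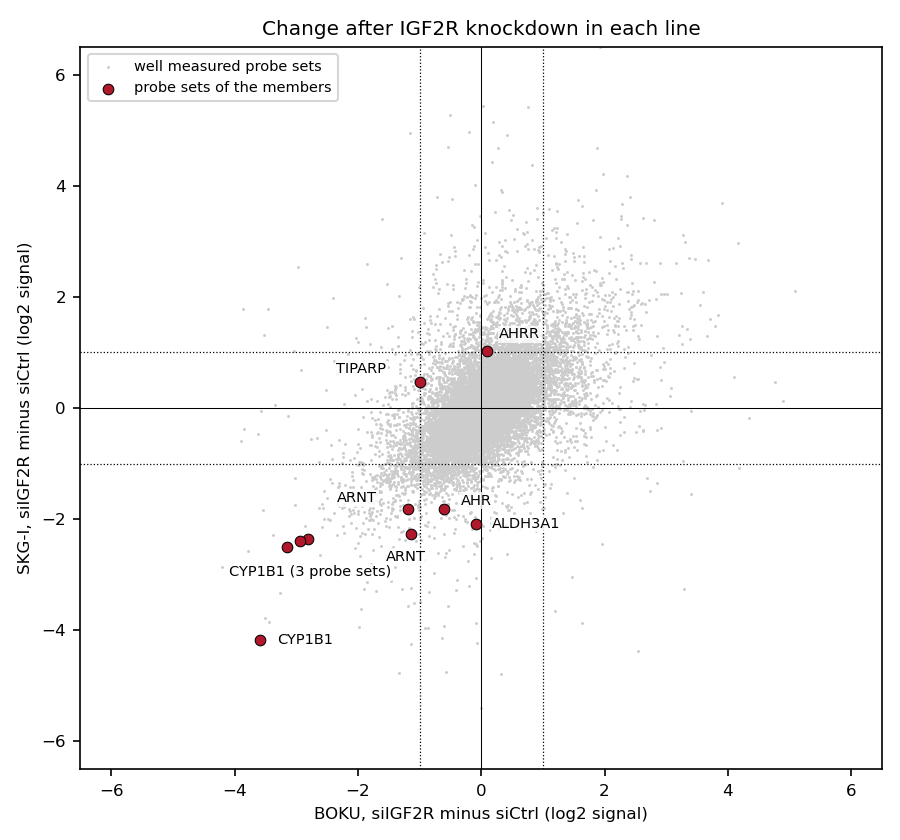
Each point is a well measured probe set, placed by its log2 signal with siIGF2R minus siCtrl in BOKU (horizontal) and in SKG-I (vertical), with dotted lines at a 2-fold change and 3 points outside the axes. The probe sets of CYP1B1 and ARNT (red) lie in the lower left, past the dotted lines of both lines, AHRR and TIPARP lie above 0 in SKG-I, and ALDH3A1 lies near 0 in BOKU, where its signal was at background.

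The DNA element that AHR and ARNT bind holds the core GCGTG, and the promoters of members were searched for it in RefSeq sequences of build GRCh38.p14, from 250 bases before to 50 bases after each annotated start. The table held 8 windows of 5 members (AHR, ARNT, AHRR, CYP1A1 and TIPARP). The core, read on either strand, was present in 5 of these 8 windows and in 36.5% of all 35116 windows. The longer TNGCGTG, which contains the core, was present in 1 of the 8, the first AHRR window, and in 5.51% of all. 1 window each of AHRR, CYP1A1 and TIPARP with the core upstream of the start is shown because these genes are the classic targets of the receptor, with 100 bases of each, 5′ to 3′ on the gene's strand. Capitals mark the core, which reads CACGC where it lies on the other strand.
CYP1A1, chr15:74725529-74725628, minus strand: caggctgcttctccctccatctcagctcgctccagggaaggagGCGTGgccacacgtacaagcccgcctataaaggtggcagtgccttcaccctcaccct
AHRR, chr5:321614-321713, plus strand: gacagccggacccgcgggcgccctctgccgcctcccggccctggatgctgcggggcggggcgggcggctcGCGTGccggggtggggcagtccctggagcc
TIPARP, chr3:156674370-156674469, plus strand: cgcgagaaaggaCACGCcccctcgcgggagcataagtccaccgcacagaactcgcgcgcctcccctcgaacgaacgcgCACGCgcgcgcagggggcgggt
The CYP1A1 and AHRR stretches end at the base before the start, and the TIPARP stretch starts at −220 relative to its first start. The AHR window held the core once, 38 bases after the start, and the ARNT window did not hold these letters. A second AHRR window, not shown, held the core 2 times upstream of its start. The other TIPARP windows, also not shown, did not hold the core. A match is a description of the letters and not of binding.

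CYP1B1, a cytochrome P450 that oxidizes estrogens and polycyclic hydrocarbons, had the largest differences among the well measured members, and all 4 of its probe sets were lower with siIGF2R in both lines. On its brightest probe set the signal in BOKU was 2299.7 and 2199.9 with siCtrl and 300.1 and 288 with siIGF2R. In SKG-I it was 12132 and 10560.2 with siCtrl and 2139.6 and 2145 with siIGF2R. The groups were far apart within each line, and the SKG-I arrays with siIGF2R came close to the BOKU arrays with siCtrl. The signal was 7.65-fold lower in BOKU and 5.28-fold lower in SKG-I, log2 changes of −2.93 and −2.40.

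On another bright probe set the signal of CYP1B1 in BOKU was 1449.7 and 1461 with siCtrl and 164 and 166 with siIGF2R, and in SKG-I it was 8464 and 8025 with siCtrl and 1459 and 1455 with siIGF2R. This probe set was 8.83-fold lower in BOKU and 5.66-fold lower in SKG-I. On the third bright probe set the signal in BOKU was 1772 and 1898 with siCtrl and 276 and 247 with siIGF2R, and in SKG-I it was 7609 and 8500.3 with siCtrl and 1584 and 1559.7 with siIGF2R. Here the difference was 7.02-fold in BOKU and 5.12-fold in SKG-I, so on these 3 bright probe sets it was larger in BOKU.

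The dimmest probe set of CYP1B1 lay just inside the signal minimum with a highest signal of 508. Its signal in BOKU was 61.0 and 25.0 with siCtrl and 3.55 and 2.99 with siIGF2R, and in SKG-I 486 and 508 with siCtrl and 28.2 and 26.7 with siIGF2R. It was lower in both lines, and no fold is given, since its siIGF2R signals in both lines were under the median signal of every array. From the lowest of 16517 changes, the 3 bright probe sets stood at ranks 17, 24 and 27 in BOKU and at ranks 63, 71 and 78 in SKG-I.

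CYP1B1 was also higher in SKG-I before and after knockdown. On its brightest probe set the signal in SKG-I was 5.03-fold that in BOKU with siCtrl and 7.28-fold with siIGF2R. With siCtrl, 9 of the 10 well measured member probe sets, those of 5 genes, were at least 2-fold higher in SKG-I than in BOKU, beside 18.6% of all well measured probe sets. None was 2-fold higher in BOKU, beside 16.4% of all. The median difference of BOKU from SKG-I with siCtrl was −2.0 on the log2 scale over the 10, and −0.05 over all. The levels with siCtrl were part of the selection, so these counts describe the members and test nothing.

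CYP1A1, the P450 enzyme that is most used as a readout of AHR activity, was close to background on all arrays. Its single probe set read 5.84 and 39.6 in BOKU with siCtrl and 3.82 and 37.0 with siIGF2R, and these arrays overlapped. In SKG-I it read 53.5 and 71.1 with siCtrl and 10.6 and 25.7 with siIGF2R, where the siIGF2R arrays were the lower ones. Its highest signal of 71.1 was near the median signal of all probe sets, which was 65.3 to 74.8 per array, and no fold is given for it.

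TIPARP, a mono-ADP-ribosyltransferase that is induced by AHR and limits its activity, differed in opposite directions in the lines. Its signal in BOKU was 4237 and 4336 with siCtrl and 2145 and 2147 with siIGF2R. In SKG-I it was 2302 and 2394 with siCtrl and 3118 and 3406 with siIGF2R. All 4 groups were apart, with BOKU highest with siCtrl and lowest with siIGF2R. TIPARP was 2.0-fold lower in BOKU and 1.39-fold higher in SKG-I, log2 changes of −1.0 and 0.47. With siCtrl BOKU was 1.83-fold above SKG-I, and with siIGF2R SKG-I was 1.52-fold above BOKU. The difference between the lines has no replicate RNA and was not tested.

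ALDH3A1, an aldehyde dehydrogenase of barrier epithelia, was measured in SKG-I only. Its signal in SKG-I was 1747 and 1556 with siCtrl and 374 and 404 with siIGF2R. In BOKU it was 2.08 and 3.75 with siCtrl and 3.36 and 2.05 with siIGF2R. The siIGF2R arrays of SKG-I were 4.24-fold below the siCtrl arrays, a log2 change of −2.09, and the BOKU arrays overlapped near the lowest value of the table. The change differed by at least 2-fold between the lines on 4 of the 10 well measured member probe sets, those of AHR, TIPARP and ALDH3A1 and the dimmer well measured one of ARNT, beside 11.3% of all. For ALDH3A1 the BOKU side of that difference was at background.

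**Figure D3:**
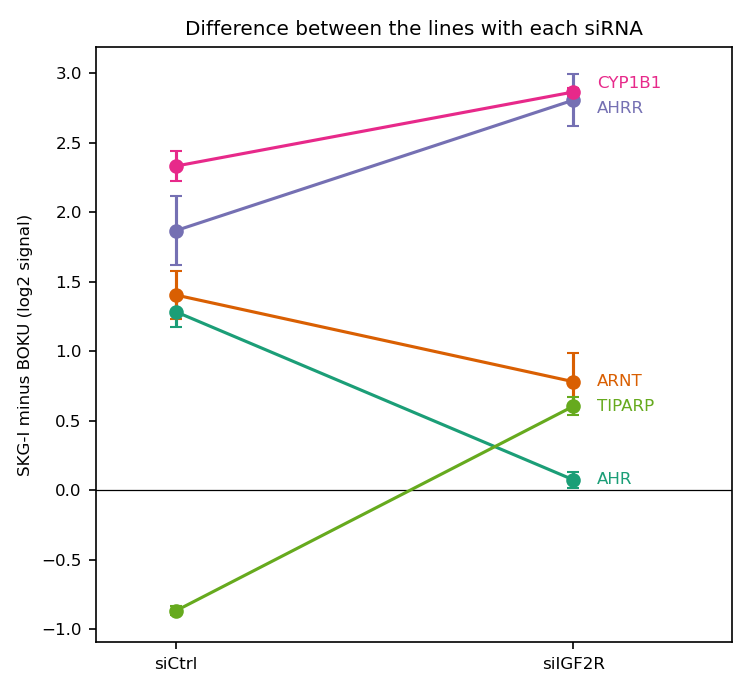
The log2 signal in SKG-I minus that in BOKU is plotted with each siRNA for the brightest probe sets of AHR, ARNT, AHRR, CYP1B1 and TIPARP, with bars of 1 standard error from the duplicate arrays of the same RNA. AHR comes to near 0 with siIGF2R and TIPARP crosses 0, while CYP1B1 and AHRR lie above 2 with siIGF2R, higher than with siCtrl.

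The genes whose profile over the 8 arrays was most like that of each member were found by the Euclidean distance of centred log2 signals, where 0 would be an identical profile. For AHR they were ARHGAP21 at 0.36 and C6orf141 at 0.46, and for ARNT they were IPP at 0.40 and KCTD9 at 0.54. AHRR was nearest to SERPINI1 at 0.38 and ZNF431 at 0.43, and TIPARP to DEPDC7 and RAB31, at 0.34 and 0.35. CYP1B1 had no profile nearer than EIF3H at 1.36 and FAM210B at 1.37, and ALDH3A1 none nearer than ELMO1 at 1.10 and IGSF10 at 1.27. No other member was among these nearest genes.

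The other genes of the pathway were taken from 6 lists of 57 genes, of which 50 had a probe set of their own and 32 were well measured. NQO1, a quinone reductase that is a target of AHR and of NFE2L2, was the single gene that passed the test, and it fell. Its signal in BOKU was 19257 and 19615 with siCtrl and 10673 and 11289.7 with siIGF2R, and in SKG-I it was 18884 and 18276 with siCtrl and 12902 and 12273 with siIGF2R. The groups did not overlap in either line. The log2 fold change by limma was −0.69 (SE 0.13, adjusted p = 0.0460), with −0.82 in BOKU and −0.56 in SKG-I, and its 3 probe sets had the same direction. None of the 32 rose and 1 fell, beside 2.59% and 2.35% of all 8961 genes, and at an unadjusted p under 0.05 limma gave 4 higher and 6 lower, beside 1286 higher and 1248 lower of all 8961. The adjusted p of NQO1 by limma ran from 0.000149 to 0.167 over 19 alternative settings and was above the threshold in 7 of them. The lowest, 0.000149 and 0.00221, came from counting duplicate arrays of the same RNA as separate samples. NQO1 was also not called when its probe sets were averaged or by the methods' t-test with 2-fold, settings that the 19 leave out. Its change was under 2-fold in each line, so that t-test setting could not call it whatever its p value.

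Of the proteins that hold or turn over AHR in the cytosol, 5 were measured and none passed the test. The log2 fold change was 0.79 for the chaperone HSP90AA1 (adjusted p = 0.0631 by limma), −0.65 for the ubiquitin ligase STUB1 (adjusted p = 0.0663 by limma) and 0.53 for the scaffold CUL4B (adjusted p = 0.121 by limma). The median log2 change of the list was −0.07 in BOKU and 0.41 in SKG-I, beside 0.03 and −0.03 over all genes.

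Of the bHLH-PAS relatives, which include other partners of ARNT, 7 were measured and none passed. BMAL2, a clock protein, had a log2 fold change of 1.31 (adjusted p = 0.0671 by limma), with signals in BOKU of 369 and 321 with siCtrl and 741 and 764 with siIGF2R. SIM2 had one of 0.96, NPAS2 one of 0.81 and HIF1A, the oxygen-regulated partner of ARNT, one of 0.35, with adjusted p values by limma of 0.113, 0.237 and 0.187. The median of the list was 0.30 in BOKU and 0.58 in SKG-I. BMAL2, SIM2 and NPAS2 reached 500 only on siIGF2R arrays, where they were high. The filter thus favored a rise, and nothing is read from these genes or from the median.

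None of the 8 measured coregulators passed. NRIP1, a corepressor, had a log2 fold change of −0.72 and the coactivators NCOA2 and MED1 ones of −0.67 and 0.45, with adjusted p values by limma of 0.0866, 0.110 and 0.198. The median of that list was −0.13 in BOKU and −0.19 in SKG-I.

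Among the 6 measured genes that also respond to AHR, the drug efflux pump ABCG2 differed most in SKG-I. Its signal there was 881 and 887 with siCtrl and 43.7 and 57.3 with siIGF2R, and in BOKU it was 166 and 182 with siCtrl and 102 and 123 with siIGF2R. Its siIGF2R arrays were below its siCtrl arrays in each line, with a log2 change of −0.63 in BOKU. No size is given for SKG-I, where its siIGF2R signals were under the median signal of every array. ABCG2 did not pass the test over both lines (adjusted p = 0.150 by limma). The amino acid transporter SLC7A5, the repressor HES1 and the stress factor NFE2L2 had log2 fold changes of −0.35, 0.31 and −0.11 (adjusted p values of 0.252, 0.400 and 0.626 by limma). The median of the list was −0.13 in BOKU and −0.32 in SKG-I. It includes ABCG2, and nothing is read from it.

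Of the enzymes that make tryptophan-derived ligands 3 were measured, and of the membrane partners of P450 enzymes 3, and none passed. KYAT3, which makes kynurenic acid, had a log2 fold change of −0.35 (adjusted p = 0.341 by limma), and POR, which passes electrons to P450 enzymes, one of −0.28 (adjusted p = 0.460 by limma). IDO1 and TDO2, the first enzymes of the kynurenine route, stayed at 249 or less on every array. The medians were 0.05 and −0.68 for the ligand enzymes and −0.08 and −0.41 for the P450 partners, in BOKU and SKG-I in turn.

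**Figure D4:**
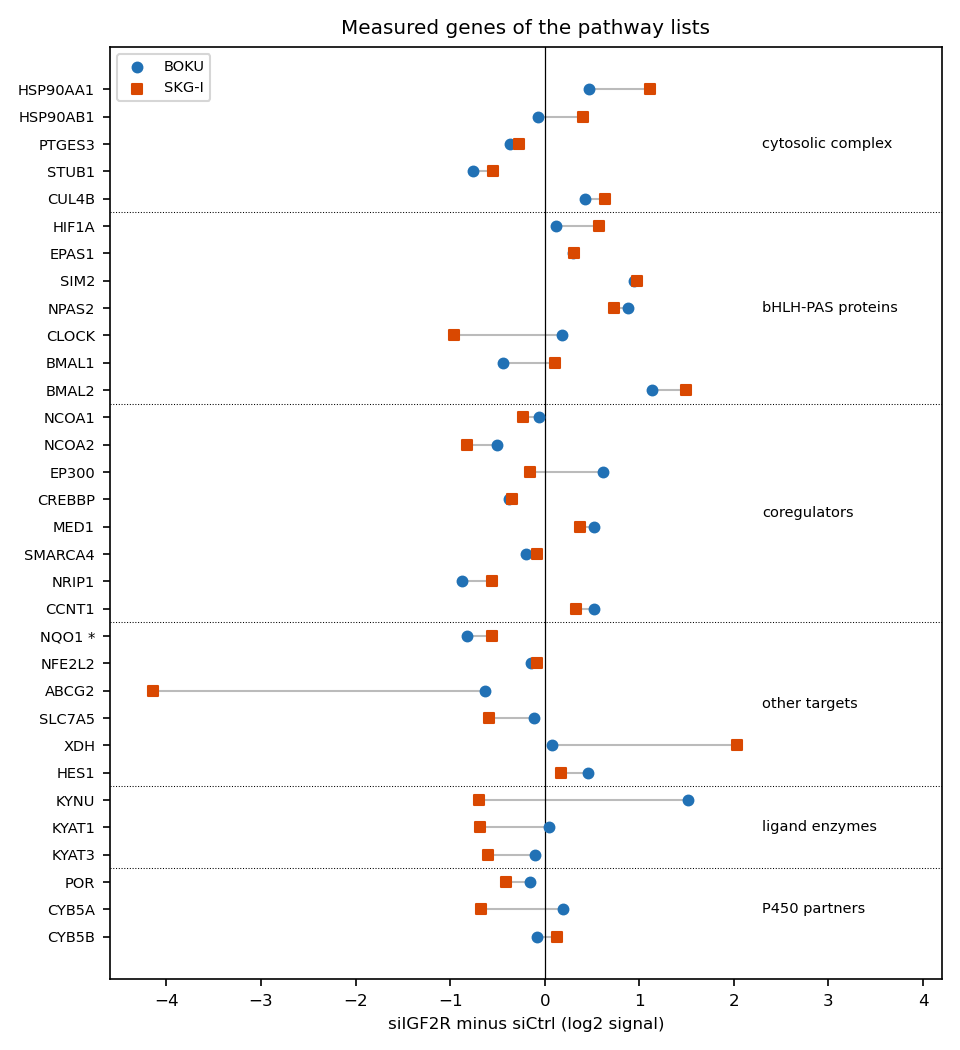
Each row is 1 of the 32 measured genes of the 6 pathway lists, with its log2 signal with siIGF2R minus siCtrl in BOKU (circle) and in SKG-I (square), and a star marks an adjusted p under 0.05 by limma. NQO1 alone carries a star, ABCG2 lies farthest below 0 in SKG-I, where its siIGF2R signals were at background, and KYNU lies on opposite sides of 0 in the lines.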

How the data were processed

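The authors hybridized total RNA to Affymetrix U133 Plus 2.0 GeneChips and deposited 1 signal per probe set and array, an intensity on a linear scale made with MAS5, per the labels. Background subtraction, the summary over probes and the scaling of arrays preceded deposition, and low signals are noisy on a log scale. A figure legend of the study says that duplicates are the same total RNA. The paper does not say which of its IGF2R siRNAs was used on the arrays. The array has 54675 probe sets, and 62 controls were left out. Gene symbols came from the platform annotation, updated through the gene ID to RefSeq for 41037 of 41091 probe sets with 1 gene.

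Signals were put on the log2 scale with no added constant, and duplicates were averaged. R 4.3.3 with limma 3.58.1 (lmFit, eBayes with a variance trend) was fitted to the 4 RNA samples with the cell line as a block, which leaves 1 residual degree of freedom, over the 16517 probe sets that reached 500 on 1 array or more. Tests were two-sided, with Benjamini-Hochberg adjustment and a threshold of 0.05. They were also run on simulated data, with large shifts that were alike in both lines, which does not show how smaller shifts fare. Each pathway gene was represented by its well measured probe set of highest mean signal. The p values rest on the spread between the 2 lines, drawn toward the variance trend over all probe sets. With 4.82 prior against 1 residual degree of freedom, most of each variance came from that trend. The number of RNA samples limits the precision. The members got no test. The members and lists were chosen with earlier results of these data known. Named were all members, list genes past the threshold, up to 3 more per list that changed alike in both lines with the largest smaller change, HIF1A, NFE2L2 and NQO1, and the 2 nearest profiles of each well measured member. A further gene of the naming rule is not reported here. IDO1, TDO2 and KYAT1 were named after their values were seen. The alternatives were other scalings, a floor of 100, 64 added to each signal, the arithmetic mean of duplicates, other filters, no variance trend, arrays as separate samples, the methods' t-test, averaging over each gene's probe sets, and leaving out each array.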

Additional observations from a re-analysis of the deposited data

Results flagged for a closer look

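Among the well measured members and pathway genes, 4 differed in opposite directions in the lines, with both arrays of each line on the same side. The share of all well measured probe sets that do so was not counted, so nothing is read from the number. The difference was not tested, since each line gave 1 RNA sample per siRNA. For TIPARP the log2 change was −1.0 in BOKU and 0.47 in SKG-I, a difference of 1.47. For KYNU, a hydrolase of the kynurenine route, it was 1.51 in BOKU and −0.70 in SKG-I, a difference of −2.20. For CLOCK, a bHLH-PAS clock protein, it was 0.18 and −0.96, a difference of −1.14. For CYB5A, an electron carrier of P450 enzymes, it was 0.19 and −0.68, a difference of −0.87. KYNU, CLOCK and CYB5A were chosen after their values were seen.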

How the results depend on the processing

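The log2 changes and line differences of the members were recomputed under 14 alternatives, 336 values in all. Of these, 23 moved by more than the spread between duplicates and 313 did not. Leaving out 1 array cannot, by arithmetic, move a value past that spread. Those alternatives therefore count among the 313 whatever the data, and only the others could move. With a floor of 100 the CYP1A1 differences in SKG-I and between the lines came to 0. The directions of AHR, ARNT, CYP1B1 and TIPARP held in both lines under every one of these alternatives, while AHRR and ALDH3A1 in BOKU had the other sign in 3 each. The count of member probe sets 2-fold lower in both lines, 6, was 5 with a floor of 100 and 3 with 64 added. It was 0 with 500 or more on every array, where no probe set of CYP1B1 or ARNT was left, so the filter fixed that value. With that filter 1 probe set was 2-fold lower in BOKU than SKG-I with siCtrl. With no filter 1 was 2-fold higher in both lines and 1 was 2-fold higher in BOKU. For the other settings the cause was not tested.

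Of the pathway genes, 1 was lower and 0 higher by limma. The lower count was 0 with quantile normalization, scaling to a mean of 1000, no filter, no variance trend, averaging over each gene's probe sets and the methods' t-test within each line with 2-fold, with and without adjustment. The higher count was 1 with 64 added, with 500 or more on every array and with the unadjusted t-test. With arrays as separate samples, which counts duplicates as replicates, 11 were higher and 9 lower, and with the replicate block 9 and 7. The replicate numbers did not pair the samples, since deviations from group means correlated at −0.01 to 0.13. Leaving out 1 array gave 0 to 2 higher and 0 to 2 lower. The adjusted p of NQO1 was 0.0550 without BOKU siCtrl replicate 2, 0.0683 without BOKU siIGF2R replicate 1 and 0.0512 without SKG-I siCtrl replicate 1. Without BOKU siCtrl replicate 1, HSP90AA1, BMAL2 and STUB1 passed as well. HSP90AA1 also passed without BOKU siIGF2R replicate 1, BMAL2 without BOKU siIGF2R replicate 2 and STUB1 without SKG-I siCtrl replicate 2. Signals under 500 set the limit for ARNT2, CYP1A1 and, in BOKU, ALDH3A1. Those of AHRR in BOKU, of ARNT with siIGF2R and of CYP1B1 in BOKU with siIGF2R were also under 500.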
